A study of Drosophila melanogaster with 2 samples.

Results

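The genes described here are 45 axon guidance and cell adhesion genes of Drosophila melanogaster, taken by symbol from a fixed list out of 13968 protein-coding genes on the 7 chromosome arms. They were examined for peaks of Lim3, a transcription factor of the LIM-homeodomain family that acts in motor neurons, among other cells. The study precipitated chromatin from transgenic flies that carried Lim3 fused to eGFP, with an antibody against GFP, in whole embryos aged 8 to 24 h. The labels give 1 group of 2 biological replicates, both with the fusion, so no condition was compared and no control library was analysed here. Because whole embryos were used, a peak was averaged over all tissues, and peak lists hold no expression against which the cells could be checked. A peak list from both libraries, called the larger list here, held 1500 peaks past the authors' limit on the irreproducible discovery rate (IDR), a measure of how well rankings agree. It came from 142438 ranked peaks. Replicate 1 had 104680 ranked and 881 listed peaks, and replicate 2 had 113860 and 927. Read depth is unknown.

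Guidance genes encode the ligands and receptors by which a growing axon is attracted to or turned away from its path. Netrins attract through Frazzled and repel through Unc-5, Slit repels through the Robo receptors, and semaphorins signal through plexins. Adhesion proteins of the immunoglobulin, cadherin, leucine-rich repeat and teneurin families hold axons in bundles and help match them to their targets. Motor axons of the embryo are a standard setting for these genes, and Lim3 is known as part of the code of factors that sets which muscles a motor neuron reaches.

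A peak was counted for a gene when its summit lay in the gene's span extended by 2 kb on both sides. By that rule 9 of the 45 genes (20%, Wilson 95% interval 10.9 to 33.8) held a peak of the larger list, beside 14.1% of all 12951 protein-coding genes that had any ranked peak. These were Fas3, fz, Sema1a, Ptp99A, NetA, Nrx-1, Ten-a, unc-5 and drl, with 13 listed peaks among them. NetA had 3 peaks, fz and unc-5 had 2 each and the other genes had 1 each. The strongest was that of Fas3, with a signal of 136, at place 351 of the 1500. The signal is the authors' measure of peak strength. Its scale is not stated in the labels or file headers, so it is read within 1 list only. The other 12 peaks had signals from 63.8 to 98.8, and 3 of the 13 lay above the median of the list, 89.9.

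Of these peaks, 9 hold one of 3 words, searched for on both strands, around the summit. Of all 1445 listed peaks on the arms, 20.1% hold TAATTA, 19.1% TAATTG and 21.9% ACAGTG. The share of those that hold any of the 3 was not computed, so the 9 only sets which sequences are shown. The sequences of 8 of these 9 are printed, and that of an intronic unc-5 peak, which holds TAATTG, is not. TAATTA is a core site of homeodomain proteins, those of the LIM class included, TAATTG is a variant of it, and ACAGTG was taken up because earlier results on these peaks had named it. Each window is 200 bases of the plus strand of dm6, read from the RefSeq copy of Release 6, with the word or its reverse complement in capitals.

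Fas3, chr2L:18325264-18325463, intron: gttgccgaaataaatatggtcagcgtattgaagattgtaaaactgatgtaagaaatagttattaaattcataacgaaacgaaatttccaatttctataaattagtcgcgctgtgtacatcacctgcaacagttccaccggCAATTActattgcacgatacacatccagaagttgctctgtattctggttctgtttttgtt
fz, the stronger peak, chr3L:14363515-14363714, intron: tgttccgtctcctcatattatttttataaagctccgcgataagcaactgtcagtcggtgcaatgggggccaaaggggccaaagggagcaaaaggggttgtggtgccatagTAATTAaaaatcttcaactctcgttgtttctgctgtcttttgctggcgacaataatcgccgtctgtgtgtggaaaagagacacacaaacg
fz, the weaker peak, chr3L:14303962-14304161, intron: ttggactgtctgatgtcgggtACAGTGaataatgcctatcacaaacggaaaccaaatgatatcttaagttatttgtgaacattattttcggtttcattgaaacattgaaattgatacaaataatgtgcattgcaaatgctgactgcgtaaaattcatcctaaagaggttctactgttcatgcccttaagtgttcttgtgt
Sema1a, chr2L:8575020-8575219, intron: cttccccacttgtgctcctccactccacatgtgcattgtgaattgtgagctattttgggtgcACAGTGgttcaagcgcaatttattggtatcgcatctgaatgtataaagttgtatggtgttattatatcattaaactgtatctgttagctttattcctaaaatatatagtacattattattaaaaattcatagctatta
Ptp99A, chr3R:29478841-29479040, promoter: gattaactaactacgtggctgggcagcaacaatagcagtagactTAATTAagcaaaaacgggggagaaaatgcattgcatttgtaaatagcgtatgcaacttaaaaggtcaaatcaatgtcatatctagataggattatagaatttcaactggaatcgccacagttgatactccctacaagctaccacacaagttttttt
NetA, the middle peak by signal, chrX:14612414-14612613, intron: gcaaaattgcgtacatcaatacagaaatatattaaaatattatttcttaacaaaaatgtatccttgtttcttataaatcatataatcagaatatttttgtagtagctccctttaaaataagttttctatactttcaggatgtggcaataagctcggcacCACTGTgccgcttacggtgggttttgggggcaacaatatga
Ten-a, chrX:12222902-12223101, intron: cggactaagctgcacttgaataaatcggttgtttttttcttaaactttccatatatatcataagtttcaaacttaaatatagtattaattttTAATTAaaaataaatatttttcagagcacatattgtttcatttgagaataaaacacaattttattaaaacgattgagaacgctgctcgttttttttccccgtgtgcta
drl, chr2L:19196789-19196988, intron: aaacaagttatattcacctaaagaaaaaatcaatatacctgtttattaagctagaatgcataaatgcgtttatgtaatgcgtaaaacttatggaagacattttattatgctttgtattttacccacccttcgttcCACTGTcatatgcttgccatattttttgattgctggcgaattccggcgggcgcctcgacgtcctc

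TAATTA was in the windows of fz, Ptp99A and Ten-a, and ACAGTG in those of fz, Sema1a, NetA and drl. No window held both of these words. In all, 3 of the 13 windows held TAATTA (23.1%, Wilson 95% interval 8.18 to 50.3), beside 20.1% of the 1445 listed peaks on the arms and 9.94% of the 139295 ranked peaks there. ACAGTG was in 4 of 13 (30.8%, 12.7 to 57.6), beside 21.9% of listed and 8.16% of ranked peaks. With 13 windows these intervals took in the shares of all listed peaks. TAATTG was in 2 windows, GAGAG (the site of GAGA factor) in 1, TGATAA (the GATA core) in 1, and CAGCTG (an E-box) in 0. The 0 allows a share of up to 23.1%. Of all listed peaks on the arms, 19.1% held TAATTG, 23.9% GAGAG, 17.2% TGATAA and 8.79% CAGCTG. The Wilson 95% intervals of the members' counts took in these shares too. The listed windows of these genes had a median GC content of 35.5%, and all listed windows had 36%, while the 2844 ranked peaks at the 45 genes had 45.5%.

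Among the secreted and membrane-bound ligands, 2 of 10 genes had a listed peak, where comparators with similar numbers of ranked peaks, described below, gave 2.79. NetA encodes a netrin. Its 3 peaks lay in introns, 20545, 26282 and 41320 bp downstream of its nearest transcript start (TSS), with signals of 76.4, 67.4 and 74.3 (chrX:14633124-14633453, chrX:14627387-14627716 and chrX:14612349-14612678). The TSS of sbm was nearer to the peaks at 26282 and 41320 bp, which lay 24972 and 9934 bp from it. All 3 NetA peaks stood higher in replicate 1 than in replicate 2. The best of them in replicate 1 was at rank 788, in the top 0.753% of that ranking, and its counterpart in replicate 2 was at rank 8571, or 7.53%. NetB, the neighbouring netrin gene, had no listed peak. Its best ranked peak had a signal of 64.6 and rank 1496, the highest of any member without a listed peak, and an IDR of 0.0472.

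Sema1a encodes a transmembrane semaphorin that acts on motor axons. Its listed peak lay in an intron, 31790 bp downstream of the nearest TSS of the gene (chr2L:8574955-8575284, signal 86.0). It was in the list of replicate 2, at rank 622, and not in that of replicate 1, where it stood at rank 1832. A tRNA gene had the TSS nearest to it, at 4232 bp. The secreted semaphorin genes Sema2a and Sema2b had best ranks of 3398 and 4994, and Sema1b had 31181, with a signal of 27.7. At Sema1b the best rank was 19630 in replicate 1 and 4771 in replicate 2. Stretches of at least 5 kb without a summit, described below, covered 54.7% of its extended span in the list from both libraries. They covered 91.9% in replicate 1 and 0% in replicate 2. The best rank of sli, the ligand of Robo receptors, was 2466. The Wnt genes Wnt5 and Wnt4 were at 5084 and 15349. Ephrin, on chromosome 4, had no ranked peak from both libraries.

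Of 11 guidance receptor genes, 3 had a listed peak, where comparators gave 2.67. The receptor fz is a Frizzled receptor of Wnt ligands, known also for planar cell polarity. Its stronger peak (chr3L:14363450-14363779, signal 98.8) lay 89272 bp into the gene, near its 3′ end, and 6092 bp from the TSS of CG13481. In replicate 2 that peak was at rank 370, and in replicate 1 no ranked peak overlapped it. The weaker peak (chr3L:14303897-14304226, signal 94.2) lay 29719 bp downstream of the TSS of fz and 22189 bp from that of the non-coding gene lncRNA:CR45025. It had ranks of 1573 and 650 in replicates 1 and 2. Both fz peaks were in the list of replicate 2 alone.

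The gene unc-5 encodes the repulsive netrin receptor. One of its peaks lay in an intron 11635 bp downstream of its nearest TSS and 9752 bp from that of Pms2 (chr2R:15361603-15361932, signal 74.0). The other lay at a promoter, 116 bp upstream of a TSS within the gene (chr2R:15349852-15350181, signal 67.7). Neither was in a replicate's list. The first had ranks of 2275 and 1324 in replicates 1 and 2, and the second 1525 and 3955. The second had the IDR closest to the limit of the 13 peaks, 0.00811, where listing stopped at 0.01. Another ranked peak beside unc-5, with an IDR of 0.0109 and a signal of 59.3, fell just outside. The attractive netrin receptor gene fra had no listed peak, and its best rank was 2546.

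The gene drl encodes a Ryk-family receptor of Wnt5. Its peak was the weakest of the 13 (chr2L:19196724-19197053, signal 63.8), in an intron 6547 bp downstream of the TSS. Its ranks were 3228 in replicate 1 and 2425 in replicate 2, and it was in neither list. The related gene Drl-2 came close, with a best peak at rank 1584 and an IDR of 0.0123. The Robo receptor genes robo3, robo1 and robo2 had best ranks of 2163, 7030 and 7789. Among the genes nearest to robo2 in number of ranked peaks, 90.5% had a better rank. In the replicates robo2 had best ranks of 15083 (replicate 1) and 2682 (replicate 2). The gene comm, whose product keeps Robo from the growth cone surface, and its relative comm2 had best ranks of 9503 and 2501. For comm2 the best rank was 24037 in replicate 1 and 1877 in replicate 2.

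Of the 3 receptor tyrosine phosphatase genes, 1 had a listed peak, where comparators gave 1.07. This was Ptp99A, with its peak at a promoter 375 bp upstream of a TSS that lies within the gene (chr3R:29478776-29479105, signal 76.6). Its summit was 101295 bp from the gene's 5′ end. It was at rank 771 in replicate 2, where it was listed, and at 4765 in replicate 1. Lar had no peak in the larger list, and its best rank was 2636. In replicate 1 a peak of low signal, 23.1, was listed within Lar and the overlapping gene CG46244, and the overlapping peak of replicate 2 stood at rank 89686. Ptp69D had 0 ranked peaks from both libraries, 0 in replicate 1 and 2 in replicate 2.

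Fas3 encodes Fasciclin 3, a homophilic adhesion protein of motor neuron RP3 and the muscles it contacts. It was the only 1 of 8 immunoglobulin family genes with a listed peak, where comparators gave 2.84. The peak lay in an intron 5262 bp downstream of the TSS (chr2L:18325199-18325528, signal 136, −log10 IDR 3.59). It was the only one of the 13 found in the lists of both replicates, with rank 768 and a signal of 50.3 in replicate 1, and rank 296 and a signal of 80.9 in replicate 2. The other members of the family were not listed. They include Fas2, a homophilic protein that bundles motor axons, and the Dscam genes. The product of Dscam1 lets branches of 1 neuron recognise each other. None of these other members had a peak in the larger list. The best ranks of these members were 2733 for Dscam1, 3241 for Fas2, 3582 for Dscam4, 5150 for klg, 7621 for Dscam3, 9676 for Nrg and 16779 for Dscam2. For Dscam2, 98.4% of the genes nearest in number of ranked peaks had a better rank, and for Nrg, which encodes an L1-type protein, 95.3%.

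Ten-a and Ten-m encode teneurins, which match synaptic partners. Ten-a had the most ranked peaks of the 45 genes, 324, and a span of 292 kb. Its listed peak lay in an intron 6921 bp upstream of a TSS within the gene (chrX:12222837-12223166, signal 74.2), with ranks of 1917 and 1377 in replicates 1 and 2. A second site in Ten-a was listed in replicate 2 alone (chrX:12202181-12202480, rank 701), and no ranked peak of replicate 1 or of both libraries overlapped it. Ten-m had 169 ranked peaks, the best at rank 2685. Another of its peaks had an IDR of 0.0104, just outside the limit.

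Nrx-1 encodes neurexin, a presynaptic adhesion protein. Its promoter peak lay 137 bp downstream of a TSS (chr3R:22469153-22469482, signal 74.8). It was at rank 608 in replicate 1, where it was listed, and at 36927 in replicate 2, with signals of 57.5 and 15.4. This was the widest difference between the replicates among the 12 listed peaks with a ranked peak in each replicate. The stronger fz peak, with none in replicate 1, could not be compared. Nrt, which encodes Neurotactin, had a best rank of 3420.

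The 5 leucine-rich repeat genes and the 2 cadherin genes had no peak in the larger list, where comparators gave 1.87 and 0.938. The first were caps, haf, Con, Tl and trn, with best ranks of 1717, 2079, 2122, 2473 and 32707. Con encodes Connectin, an adhesion protein of a subset of muscles and their motor axons, and it had 185 ranked peaks, second to Ten-a. The genes caps and trn encode proteins by which motor axons and muscles recognise each other. The best rank at caps was 13124 in replicate 1 and 1255 in replicate 2. A peak 2 kb or less beyond haf was listed in replicate 1 (rank 753), 106 bp from the TSS of CG14352, and the overlapping peak of replicate 2 stood at rank 95061. The best ranks of the N-cadherin genes CadN and CadN2 were 2428 and 3435.

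**Figure D1:**
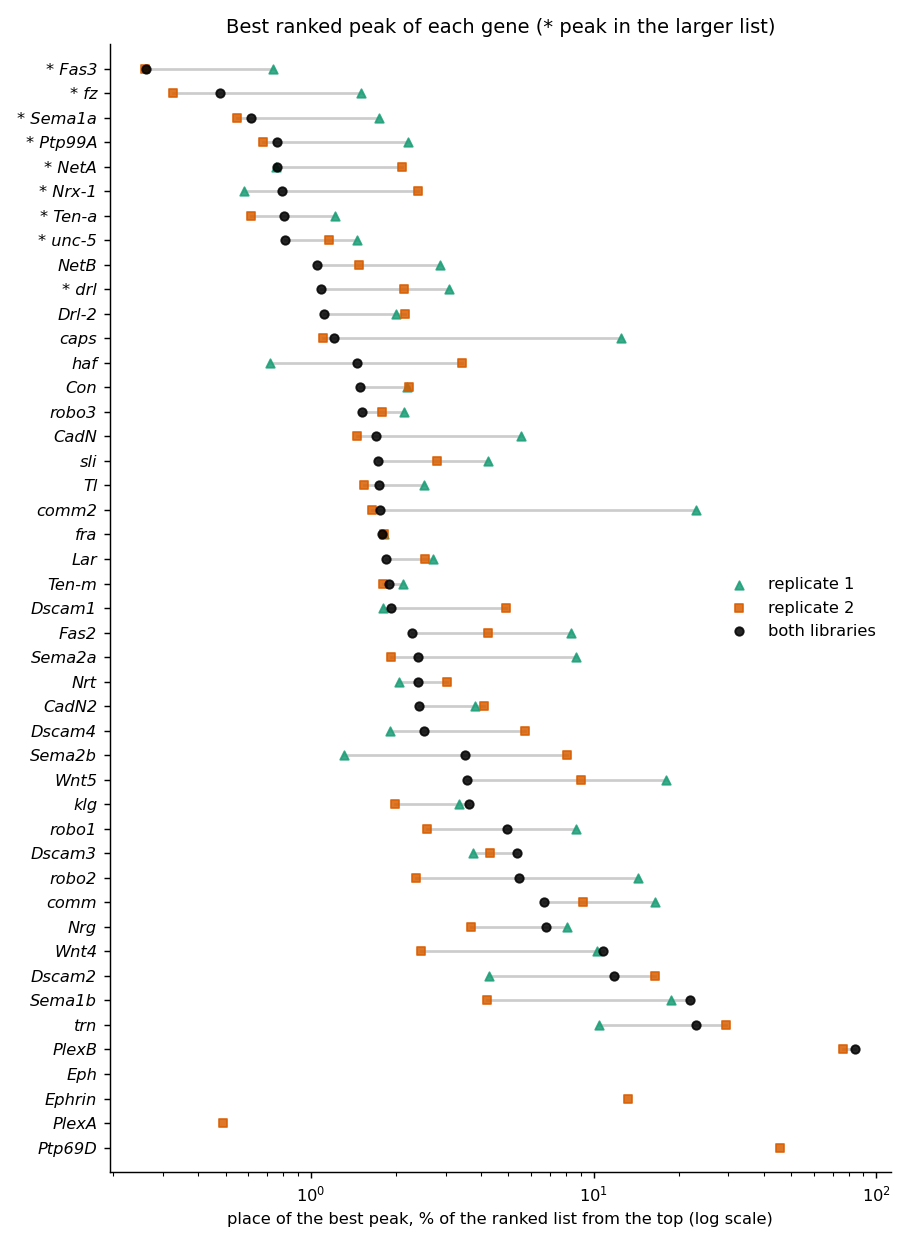
Place of the best ranked peak of each of the 45 genes, as a percentage of the ranked list from the top (log scale), in the list from both libraries and in each replicate. Grey lines join the values of 1 gene, an asterisk marks the 9 genes that the larger list includes, and Eph has no point because no list held a ranked peak there.

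Chromosome 4 carried 4 of the 45 genes, and few ranked peaks lay there. The list from both libraries held 77 ranked peaks on that chromosome, replicate 1 held 45 and replicate 2 held 393. Of its 80 protein-coding genes, 9 had a ranked peak from both libraries, 6 had one in replicate 1 and 42 in replicate 2. PlexB had 1 ranked peak from both libraries, at rank 119964 of 142438, and PlexA, Ephrin and Eph had 0. PlexA, which encodes the plexin receptor of Sema1a, had 11 ranked peaks in replicate 2. One of them, at the promoter 151 bp from its TSS, was listed there (chr4:1027102-1027401, signal 58.9, rank 555). No ranked peak of replicate 1 or of both libraries overlapped it. Ephrin had 8 ranked peaks in replicate 2, the best at rank 15027, and Eph had 0.

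The 45 genes are long, and a long gene holds more ranked peaks. The median span of the 41 members with a ranked peak was 43.4 kb, beside 2.22 kb for all 12951 genes, and the median number of ranked peaks was 58, beside 8. Per 10 kb of extended span the medians were 12.01 and 12.10. The best rank had a median of 2636 over the 41 members and 9284 over all genes. Each member was therefore set beside the 100 genes outside the list that were nearest in number of ranked peaks, with ties kept. For members with the most peaks the match was loose. The comparators of Ten-a, with 324 ranked peaks, had 103 to 473, and those of Con, with 185, had 101 to 268. On average 34.4% of the members' comparator genes held a listed peak, which corresponds to 14.1 members, where 9 were observed. Without the 2 kb extension the comparators gave 11.04, where 9 were again observed. Of the 41 members, 15 had a better best rank than the median of their comparators and 26 a worse one. In 8 members, at least 90% of the comparators ranked better, and in 1, Fas3 (7.92%), at most 10% did. The difference between 9 and 14.1 is a description of these lists and was not tested.

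**Figure D2:**
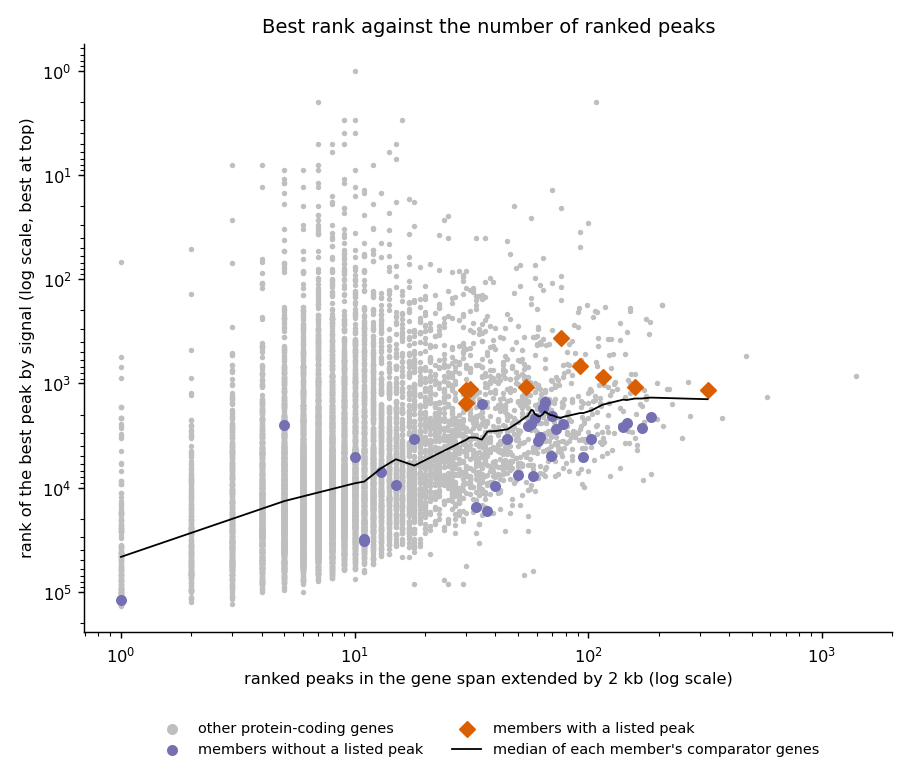
Rank of the best peak by signal against the number of ranked peaks per gene, both on log scales, for 12951 protein-coding genes. Orange diamonds are the 9 members with a listed peak, purple points are members without one, and the black line joins the median best rank of each member's comparator genes; 26 of 41 members have a worse rank than their line.

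The count was lower than its comparators in each list. The shares given beside it are over the 12951 genes with a ranked peak from both libraries. In the conservative list, the authors' stricter list from both libraries, 6 members had a peak, where comparators gave 10.3 (share 10.3%). In the list of replicate 1 it was 5 members against 8.75 (8.78%), and in that of replicate 2 it was 6 against 9.18 (9.49%). The 6 include PlexA, which had no ranked peak from both libraries. PlexA thus had no comparators in the 9.18 and is not among the 12951. Just 1 member, Fas3, was in the lists of both replicates, where comparators gave 5.67 (6.08%). The 5 members of replicate 1 were Fas3, NetA, Nrx-1, haf and Lar, and the 6 of replicate 2 were Fas3, fz, Sema1a, Ptp99A, Ten-a and PlexA. The 3 genes that the conservative list lacked were Nrx-1, Ptp99A and drl.

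The replicates differed in which of the 13 peaks they ranked high. Of the 13 listed peaks, 1 was listed by both replicates, 2 only by replicate 1, 4 only by replicate 2, and 6 by neither of them. Over all 1445 listed peaks on the arms the shares were 32.7%, 16.7%, 22.7% and 28.0%. Reads of both replicates entered the larger list, so the lists are not independent of it. The 12 peaks with a ranked peak in each replicate were placed higher in replicate 1 for 5 of them and in replicate 2 for 7. The Spearman correlation of their signals between the replicates was −0.37 over these 12 peaks, beside 0.53 over the 1255 such peaks of the whole list. Both values are descriptions over peaks of the same 2 libraries, and the smaller one rests on 12 points. Apart from Fas3, these 12 peaks have signals of 63.8 to 94.2 in the larger list, where another peak had 468. Just 3 of the 13 lay above the median signal of that list. The members' peaks and the whole list are thus not like for like, and the part this had was not tested. Over 1449 ranked peaks at the members the correlation was 0.15, and over 66879 such peaks of all arms 0.18.

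**Figure D3:**
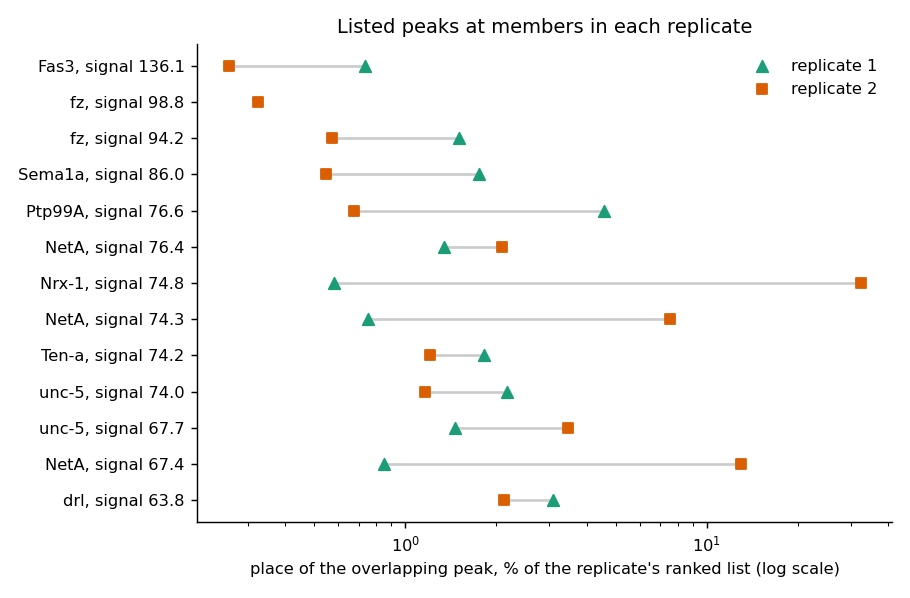
Place of the replicate's peak that overlaps each of the 13 listed peaks, as a percentage of that replicate's ranked list (log scale). The Nrx-1 peak and the 3 NetA peaks lie further left in replicate 1, the peaks of Fas3, Sema1a, Ptp99A and fz in replicate 2, and 1 fz peak has no point in replicate 1.

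Ranked peaks did not cover the genes evenly. Stretches of at least 5 kb without a summit, a limit chosen after the data were seen, took up 12.8% of the members' extended spans in the list from both libraries, 19.3% in replicate 1 and 11.7% in replicate 2. Over all protein-coding genes these shares were 15.9%, 28.3% and 13.1%. In Fas3 such stretches covered 56.4% of the span in replicate 1 and 7.62% in replicate 2, and the gene had 28 and 79 ranked peaks there. For fz the shares were 49.2% and 5.41%, with 41 and 100 ranked peaks. The stronger fz peak lay in a stretch of 16.6 kb without a summit in replicate 1, and the Ten-a site listed in replicate 2 alone lay in one of 16.4 kb in replicate 1 and in the list from both libraries. The number of ranked peaks was higher in replicate 1 at robo3, with 55 there and 32 in replicate 2, and at Dscam2, with 42 and 25. In all, 26 members had fewer ranked peaks in replicate 1, 17 had more and 2 had equal numbers. The part that these stretches had in which peaks were listed was not tested. It is not known from the files whether the lists are complete in such stretches, so 0 ranked peaks at a gene describes the lists used here.

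**Figure D4:**
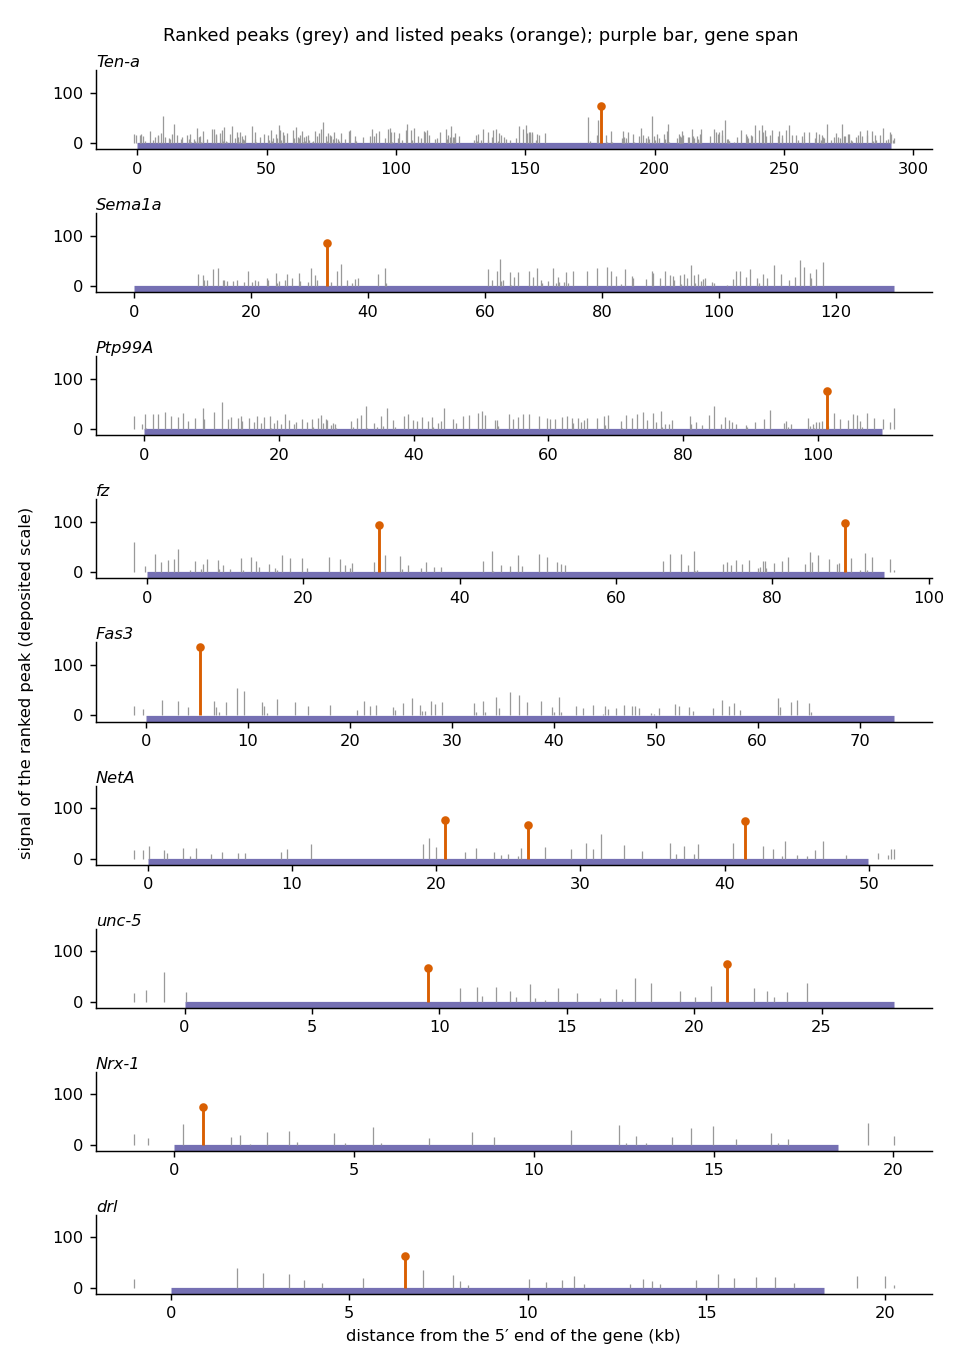
Ranked peaks from both libraries along the 9 genes with a listed peak. The horizontal axis is the distance from the gene's 5′ end in kb, the height is the deposited signal, grey lines are ranked peaks, orange lines with a dot are the 13 listed peaks and the purple bar is the gene span. In each of these genes the listed peaks are taller than the other ranked peaks. Stretches without a ranked summit are longest in Sema1a (17.5 kb), Ten-a (16.4 kb), fz (12.6 kb), Fas3 (10.1 kb) and unc-5 (9.5 kb).

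By position, 10 of the 13 listed peaks lay in introns (76.9%, Wilson 95% interval 49.7 to 91.8) and 3 at promoters, within 500 bp of a TSS (23.1%, 8.18 to 50.3). Of all listed peaks on the arms 35.8% were intronic and 46.4% were at promoters. The ranked peaks at all members were also mostly intronic, 75.6% of 2844, with 5.17% at promoters and 12.7% in coding sequence. The intronic share of the listed peaks was thus close to that of the ranked peaks at the members. Their promoter share, 3 of 13 peaks, was higher than the 5.17% of the ranked peaks. Over all arms the promoter share was likewise higher among listed peaks, 46.4%, than among ranked peaks, 13.7%. In the conservative list, described above, 0 of 6 listed peaks at members lay at promoters. The 10 intronic peaks lay from 5262 to 89272 bp from the nearest TSS of their own gene, with a median of 23414 bp. Their median distance to the nearest TSS of any gene was 8337 bp, beside 2311 bp for all 518 intronic listed peaks. For 7 of the 13 peaks the nearest TSS belonged to the member itself. All 13 summits lay within the span of the member and of no other annotated gene.

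Over all 2844 ranked peaks at the members, listed or not, TAATTA was in 11.4% of windows (Wilson 95% interval 10.2 to 12.6), beside 9.94% of all ranked peaks on the arms. Among intronic ranked peaks alone the shares were 13.1% and 12.6%. ACAGTG was in 8.30% at members and 8.16% on all arms, and GAGAG in 23.6% and 23.1%. Words are letters in a window and say nothing of whether Lim3 bound them.

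A second list held 99 further guidance and adhesion genes, of which 98 were matched, and 24 of these (24.5%) had a listed peak, beside 26.5 from comparators matched on ranked peaks. The share over all genes with a ranked peak was 14.1%. Signal transduction and cytoskeleton genes had peaks at 7 of 20, immunoglobulin family genes at 6 of 15, guidance receptors and cofactors at 4 of 16, and cadherins at 3 of 11. The leucine-rich repeat genes had 3 of 14, integrins and laminins 1 of 9, guidance ligands 0 of 7 and synaptic and septate adhesion genes 0 of 6. Of the 24, 8 (of 98 matched genes) also had a peak in the list of each replicate. Of all genes with a ranked peak, 6.08% did. Among these 8, the 5 with the highest signal were Mtl, a Rac-like GTPase (468), the phosphatase gene Ptp4E (186), RhoGAP93B, a GTPase activator that acts downstream of Robo (144), the kinase gene msn (144) and ed, an immunoglobulin family gene (137). Each of these 5 signals was above that of the Fas3 peak (136), that of ed by less than 1 unit.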

How the data were processed

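Chromatin immunoprecipitation was measured in 2 biological replicates. The authors deposited ranked and thresholded peak lists in dm6 coordinates, per the labels. No label or header names the aligner or the peak caller. The deposited signal of each peak was used within 1 list, and the deposited −log10 of the IDR marked the limit. Files of both libraries and of each replicate were used.

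Peaks were ranked by signal. Spans, transcript starts and position classes came from Ensembl release 115, and all 45 symbols matched. Each span was extended by 2 kb. Position classes gave priority to promoters (500 bp), then exons by kind, then introns. A gene's comparators were the 100 non-members nearest in number of ranked peaks. Words were searched in 200 bp windows. Scripts used Python 3.11.15 and pandas 2.3.3, and were checked on data with known answers. Wilson 95% intervals cover the counting of peaks and genes only, and no test was run because the design has 1 group.

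Named in full were members with a listed peak, the 5 best ranked without one, the 3 worst ranked and the 3 with most ranked peaks. Members and lists were chosen with earlier results of these data known. Other lists, spans, windows and comparators were tried as alternatives.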

Additional observations from a re-analysis of the deposited data

How the results depend on the processing

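Of 31 alternatives over 6 results, 19 stayed within 1.5 times the count, or within the interval or replicate spread of the value, and 12 did not. Without 1 replicate, 5 to 6 members had a listed peak, where comparators gave 8.75 to 9.18. The 6 include PlexA, which had no comparators. With the stronger 50% of the larger list alone, 2 members (Fas3 and fz) stood against 7.94. With the gene span unextended 9 members stood against 11.04, and with 5 kb on both sides 11 (robo2 and Ten-m were added) against 15.7. With 50 comparators, comparators by span length, or comparators of the same arm (chosen after the data were seen), the expected count was 13.97, 14.6 and 13.5. Taking the nearest TSS kept 8 of the 9 members, lost fz and added caps. The median best rank, 2636, was 2887 when ranked by IDR, 2416 in the ranking behind the conservative list and 2702 to 2912 without 1 replicate, in lists of other lengths. In the conservative list 0 of 6 listed peaks at members lay at promoters, which allows a share of up to 50%. TAATTA was in 5.80% of windows of 100 bp at members, 26.6% of those of 500 bp and 13.1% of intronic windows of 200 bp (chosen after the data were seen), beside 5.02%, 23.4% and 12.6% of all such peaks. The cause of these shifts was not tested, apart from window length, which sets how many words a window can hold. No paired analysis was possible because the labels give 1 group. Read depth is unknown, so a member without a listed peak is one where none was detectable in these lists.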
